A study of Mus musculus with 14 samples.

Results

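Expression of 9 genes whose products cross-link the extracellular matrix or tune its contacts with cells was followed in mouse embryoid bodies, free-floating balls of differentiating embryonic stem cells. They are the 5 lysyl oxidases Lox, Loxl1, Loxl2, Loxl3 and Loxl4, and 4 matrix glycoproteins, Postn, Tnc, Fn1 and Sparc. The genes were chosen by name, and all 9 were found among the 36047 genes listed in each of the 2 deposited tables. The study set a Foxk1 knockout (KO) line against the line iHA-Foxk1, which the protocols name as the control. Foxk1 encodes a forkhead transcription factor. All groups were differentiated in a mesodermal medium with serum and ascorbic acid and collected at day 3, 5 or 10. At day 10 the labels write the control genotype as Control. Control titles of days 3 and 5 also hold the tag ND, which is absent from KO titles and from all day 10 titles. The titles give no meaning for this tag, and whether it marks a treatment state of those controls was not tested. The 7 groups were Foxk1 KO and control at day 3, the same pair at day 5, and at day 10 Foxk1 KO with IWR1, Foxk1 KO without it, and control. IWR1 is a compound that protects Axin from breakdown, which lowers canonical Wnt signalling. No dose or timing of IWR1, and no KO allele, is named in the labels. Each group had 2 libraries of paired-end RNA sequencing, made from the whole aggregate, so fewer cells of a type and less RNA per cell cannot be told apart. The stem cells of both lines had been kept on irradiated mouse embryonic fibroblasts, which a plating step was meant to remove before differentiation.

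Each genotype is represented by 1 cell line, so effects of losing Foxk1 and of anything else that sets the lines apart cannot be told apart. Whether the replicates of a group were separate cultures is not stated in the labels, and p-values measure the spread between these samples only, some of which may be technical. Libraries of days 3 and 5 held 10574194 to 11621032 estimated counts each, and those of day 10 held 34466708 to 52747273. A level of 3 counts was 0.253 to 0.298 CPM (counts scaled to library size) at days 3 and 5 and 0.0621 to 0.0827 CPM at day 10. Foxk1 itself averaged 16.3 ± 0.209 CPM in KO and 81.3 ± 6.96 CPM in control libraries at day 3 (SD, n = 2 each; edgeR quasi-likelihood test, adjusted p = 2.22e-07). At day 5 it averaged 35.9 ± 3.25 CPM in KO and 133.4 ± 0.813 CPM in control libraries (adjusted p = 4.91e-07, edgeR). At day 10 it had 71.3 and 41.8 CPM in the libraries labelled Foxk1 KO, against 65.0 and 80.1 CPM in control libraries (adjusted p = 0.722, edgeR). The day 10 groups overlapped for Foxk1, so directions between the lines at day 10 rest on the labels.

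Lysyl oxidases are copper enzymes, secreted or pericellular, that oxidise lysine side chains of collagens and elastin. The aldehydes formed there link neighbouring molecules, and this makes fibrils stiff and insoluble. Lox and Loxl1 are made as proenzymes and are cut by the protease Bmp1 and its relatives, while Loxl2, Loxl3 and Loxl4 share scavenger receptor domains that Lox lacks. Fibronectin, the product of Fn1, is assembled into fibrils by integrins and is among the first matrix laid down in the mouse embryo. Matricellular proteins are secreted proteins that tune how cells bind and read the matrix. Periostin (Postn) binds Bmp1 and collagen, tenascin-C (Tnc) alters adhesion to fibronectin, and Sparc binds collagen and is secreted in quantity by mouse parietal endoderm.

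On mm10, in the GENCODE vM21 annotation, all 9 are protein-coding genes. Loxl1 (ENSMUSG00000032334.10) lies on the minus strand of chromosome 9 at 58287738 to 58313186. Loxl2 (ENSMUSG00000034205.16) is on the plus strand of chromosome 14 at 69609068 to 69695834. Loxl3 (ENSMUSG00000000693.10) is on the plus strand of chromosome 6 at 83034173 to 83052562, and 535 of its exonic bases are shared with Htra2 on the other strand. Whether reads were assigned by strand is not settled by the sources, so counts of Loxl3 and Htra2 may be mixed. Antisense or other noncoding transcripts, none of them in the tables, share 301 exonic bases with Loxl2, 292 with Fn1, 176 with Tnc and 30 with Lox. Loxl4 (ENSMUSG00000025185.14) is on the minus strand of chromosome 19 at 42593982 to 42612813. Postn (ENSMUSG00000027750.16) is on the plus strand of chromosome 3 at 54361109 to 54391037, and Tnc (ENSMUSG00000028364.15) on the minus strand of chromosome 4 at 63959785 to 64047015. Fn1 (ENSMUSG00000026193.15) is on the minus strand of chromosome 1 at 71585520 to 71653200, and Sparc (ENSMUSG00000018593.13) on the minus strand of chromosome 11 at 55394500 to 55423183.

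Promoter windows, the 250 bases before a start site in the RefSeq table for GRCm38.p6, are shown for 4 genes that have an entry there. Postn was near 0 at day 3, Loxl4 moved against the other lysyl oxidases at day 5, Tnc was called between the lines on no day, and Sparc followed Loxl2 across libraries. The table had no entry for Loxl1, Loxl2, Loxl3 or Fn1, and the window of Lox is not reported here. Capitals mark matches on either strand to TGTTTAC (forkhead), CTTTGAT (TCF/LEF), GGAATG (the TEAD motif) or TATAAA (the TATA box). They are given from 5′ to 3′ on the strand of the gene, at chr3:54360857-54361106 for Postn, chr19:42612807-42613056 for Loxl4, chr4:64047016-64047265 for Tnc and chr11:55420081-55420330 for Sparc.
Postn: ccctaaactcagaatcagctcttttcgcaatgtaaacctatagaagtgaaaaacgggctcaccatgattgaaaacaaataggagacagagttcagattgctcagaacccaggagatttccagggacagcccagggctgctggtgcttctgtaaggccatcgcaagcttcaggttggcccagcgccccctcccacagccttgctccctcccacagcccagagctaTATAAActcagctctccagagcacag
Loxl4: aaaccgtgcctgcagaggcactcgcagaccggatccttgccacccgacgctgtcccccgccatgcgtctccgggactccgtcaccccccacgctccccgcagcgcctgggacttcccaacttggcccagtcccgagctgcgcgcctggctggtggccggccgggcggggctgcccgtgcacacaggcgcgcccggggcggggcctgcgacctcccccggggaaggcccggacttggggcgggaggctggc
Tnc: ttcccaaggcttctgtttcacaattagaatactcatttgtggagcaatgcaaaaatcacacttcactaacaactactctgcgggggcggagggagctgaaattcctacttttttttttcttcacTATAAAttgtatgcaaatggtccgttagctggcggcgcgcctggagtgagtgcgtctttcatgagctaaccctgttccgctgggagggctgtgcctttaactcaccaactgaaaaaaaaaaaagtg
Sparc: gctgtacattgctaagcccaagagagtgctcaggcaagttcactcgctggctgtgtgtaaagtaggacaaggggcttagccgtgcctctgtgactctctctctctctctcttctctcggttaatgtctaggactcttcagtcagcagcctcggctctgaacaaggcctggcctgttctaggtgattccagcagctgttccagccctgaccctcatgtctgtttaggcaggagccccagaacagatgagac
Postn and Tnc each have 2 entries in the table, and the one nearest the outer end of the annotated gene is printed; the Sparc window lies inside the GENCODE span of the gene, whose outermost annotated start is farther upstream. Postn held 1 match, TATAAA from -26 to -21 relative to the start, and Tnc held 1, TATAAA from -126 to -121. Loxl4 and Sparc held 0 matches to any of the 4 motifs. Among 32851 RefSeq promoter windows of this length, TATAAA was found in 12.4%, GGAATG in 12.6%, CTTTGAT in 3.21% and TGTTTAC in 3.17%. These are letters in a window and no measure of binding.

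Per kilobase of exon, Fn1 and Sparc were the 2 most abundant of the 9 transcripts in every group, and Postn at day 3, Lox at day 5 and Loxl4 at day 10 were the least abundant. Values in this paragraph are mean CPM per kilobase of exon over 2 libraries, set side by side across the tables and not tested. At day 3 Fn1 stood at 36.1 in KO and 200.7 in control libraries, and Sparc at 43.6 in KO and 23.6 in control libraries, so the order of the pair differed between the lines. The leading lysyl oxidase on all days was Loxl2, with 4.37 in KO and 2.45 in control at day 3 and with 22.4 in KO and 37.1 in control at day 5. At day 10 Loxl2 stood at 32.2 with IWR1, 152.8 in libraries labelled KO and 65.4 in control. Lox was near the detection floor at days 3 and 5, with 0.0736 to 0.182, and at day 10 it stood at 2.07 with IWR1, 77.6 in libraries labelled KO and 14.4 in control. Loxl4 at day 10 stood at 0.437 with IWR1, 2.46 in libraries labelled KO and 0.468 in control. Dividing by the longest annotated transcript instead put Sparc (396.1) above Fn1 (359.9) in day 5 control libraries and Postn (228.7) above Loxl2 (155.4) in day 10 libraries labelled KO. In the day 10 libraries labelled KO, Sparc was highest at 942.8, followed by Fn1 at 312.6, then by Loxl2 and Postn at 137.2, whose libraries overlapped. Neighbours in the order also overlapped for Loxl1, Loxl3 and Loxl4 in day 3 KO libraries, for Tnc, Loxl1, Postn and Loxl4 in day 5 KO libraries and for Loxl4 and Lox in day 5 control libraries. With IWR1, libraries overlapped between Fn1 and Loxl2, along the run of Postn, Loxl1 and Tnc, and between Loxl3 and Lox.

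**Figure D1:**
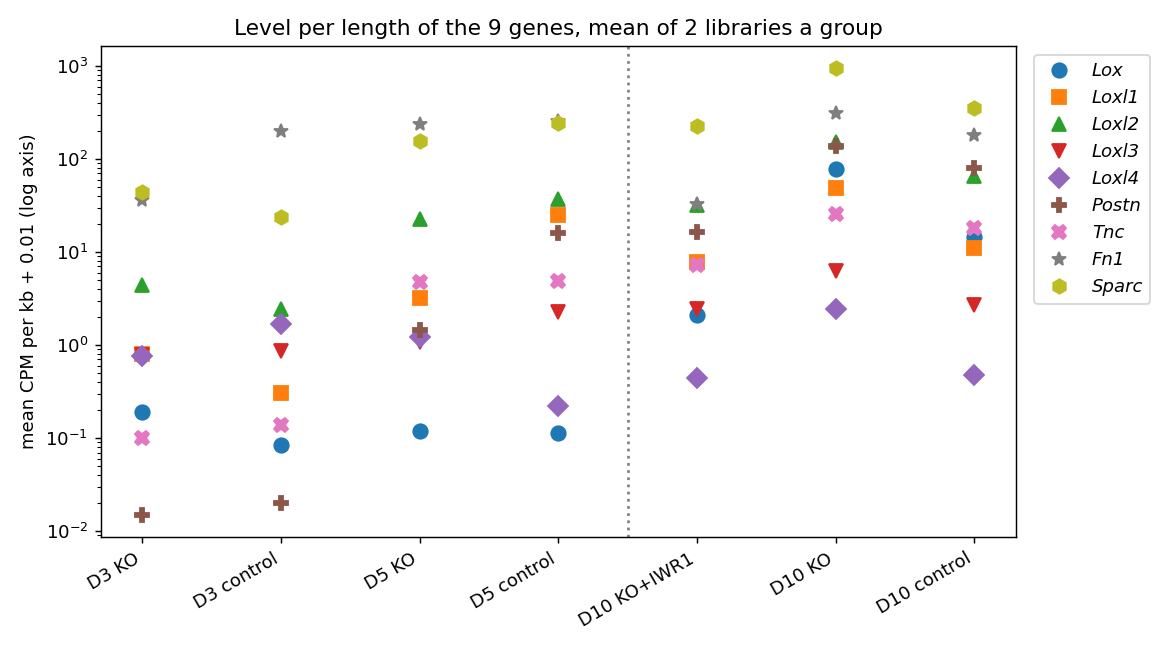
Mean level of each gene per kilobase of exon (CPM per kb plus 0.01, log axis) in the 7 groups, 2 libraries each; the dotted line separates the tables of days 3 and 5 from that of day 10. Sparc and Fn1 sit at the top of every group, while Lox is near the bottom until day 10, where it reaches 77.6 in libraries labelled KO.

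Between days 3 and 5 most of the set rose in both lines, while Loxl4 fell in control and Fn1 rose more in KO than in control. In control libraries 6 of 8 tested genes rose and 1, Loxl4, fell, where 60.8% of the 14430 genes tested were called in that comparison (30.6% higher, 30.2% lower). In KO libraries the 6 of 8 that were called all rose, where 53.8% were called (28.3% higher, 25.5% lower). Lox, with 2 to 12 counts a library on these days, did not pass the low-count filter and was not tested. The median log2 change over the 8 tested genes is not given because of Postn, whose counts at day 3 summed to 1 in KO and 2 in control libraries.

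Loxl1, which in the mouse is needed to keep elastic fibres renewed, rose in control libraries to 83.2 and 82.7 CPM at day 5, against 0.880 and 1.06 CPM at day 3 (log2 change with its SE 6.40 ± 0.59; adjusted p = 3.26e-04, edgeR). In KO libraries Loxl1 reached 15.7 and 5.14 CPM at day 5, against 2.65 and 2.53 CPM at day 3 (2.00 ± 0.58, adjusted p = 0.0324, edgeR). The day 5 KO libraries lay far apart for this gene, and both were below both controls. Without the first day 5 KO library the log2 rise of Loxl1 in the KO line was 0.99, and without any 1 of the 4 day 3 libraries its adjusted p was 0.0602 to 0.129. Loxl2, an enzyme that acts on collagen IV as well as on fibrillar collagens, rose in control libraries to 214.5 and 186.2 CPM at day 5, against 12.8 and 13.6 CPM at day 3 (3.92 ± 0.13, adjusted p = 2.01e-07, edgeR). Its rise in KO libraries, to 127.9 and 114.5 CPM at day 5 against 26.6 and 20.7 CPM at day 3, was smaller (2.36 ± 0.12, adjusted p = 2.32e-06, edgeR). The lines crossed: KO libraries were the higher at day 3 and the lower at day 5. Loxl3, whose loss in the mouse gives a cleft palate and a bent spine, rose in control libraries (1.39 ± 0.31, adjusted p = 0.00346, edgeR), with 2.02 when the first day 3 control library was left out. In KO libraries the change of Loxl3 was 0.45 ± 0.33 (adjusted p = 0.274, edgeR). Loxl4 fell in control libraries to 1.39 and 0.397 CPM at day 5, against 7.39 and 6.77 CPM at day 3 (-2.97 ± 0.41, adjusted p = 1.94e-04, edgeR). In KO libraries Loxl4 had 5.05 and 5.14 CPM at day 5, against 2.92 and 3.38 CPM at day 3 (0.69 ± 0.34, adjusted p = 0.114, edgeR). Loxl4 was thus the only one of the 8 tested genes that was called lower at day 5 in either line, with 14 and 4 counts in the day 5 control libraries. Without the first of these libraries its log2 change in control was -4.12, and without the second it was -2.35.

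Postn rose from near absence in both lines, to a lower level in KO than in control. It had 1 and 0 counts in day 3 KO libraries and 0 and 2 counts in day 3 control libraries. At day 5 it had 20.1 and 4.97 CPM in KO libraries, against 144.4 and 135.6 CPM in control libraries. From the summed counts the day 5 level was 288 times the day 3 level in KO libraries (280 counts against 1, 95% counting interval 51.2 to 11400) and 1590 times in control libraries (2824 counts against 2, 440 to 13100). These intervals are exact for counting error only. The rise of Postn was called in control (adjusted p = 0.00104, edgeR) and in KO (adjusted p = 0.0148, edgeR), and the KO call was lost without the first or the second day 3 KO library (adjusted p = 0.0634 and 0.0721). Tnc rose by 5.71 ± 0.45 on the log2 scale in KO (adjusted p = 6.30e-05, edgeR) and by 5.22 ± 0.42 in control libraries (adjusted p = 5.25e-05, edgeR). The difference of the rises was 0.49 (95% interval -1.46 to 2.44, adjusted p = 0.715, edgeR). Fn1 rose in KO libraries to 3370.4 and 2231 CPM at day 5, against 428.1 and 415.7 CPM at day 3 (2.73 ± 0.21, adjusted p = 4.09e-04, edgeR). In control libraries Fn1 was already at 2352 and 2339 CPM at day 3 and had 3001 and 2984 CPM at day 5 (0.35 ± 0.19, adjusted p = 0.182, edgeR). That change was called with DESeq2 (adjusted p = 0.0218), and it was 0.35 and 0.36 without the first and second day 5 KO library. Sparc rose by 1.85 ± 0.20 in KO (adjusted p = 0.00112, edgeR) and by 3.35 ± 0.22 in control libraries (adjusted p = 1.12e-04, edgeR).

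**Figure D2:**
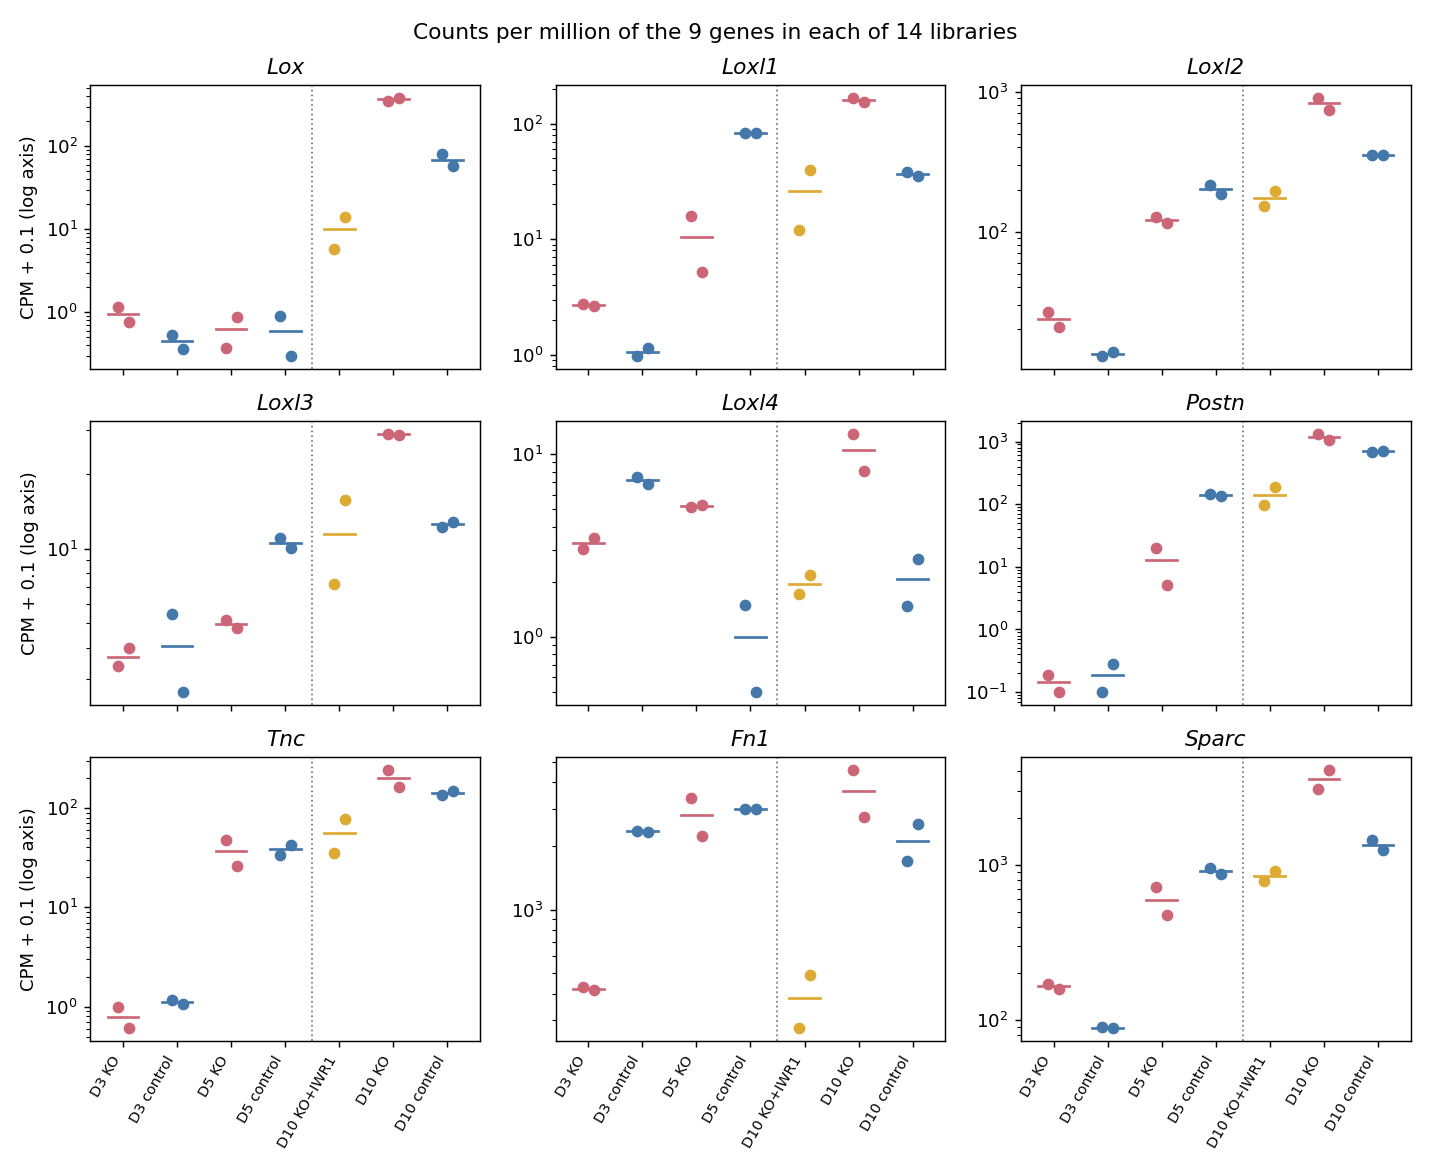
CPM plus 0.1 (log axis, one scale per panel) of each gene in each of the 14 libraries, with group means as bars: KO in red, control in blue and KO with IWR1 in yellow. At day 3 Fn1 is at 428.1 and 415.7 CPM in KO, far under control. At day 10 Lox is at 356.4 and 385.0 CPM in libraries labelled KO, against 80.0 and 57.6 CPM in control libraries.

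At day 3 the KO libraries held much less Fn1 mRNA than control and more Loxl2 and Sparc mRNA. Of the 8 tested genes 2 were called higher and 2 lower, where 32.9% of all genes tested were called in this comparison (2303 genes higher and 2440 lower), and the median log2 change over all genes was -0.01. Fn1 had 428.1 and 415.7 CPM in KO libraries, against 2352 and 2339 CPM in control libraries, 5.56-fold lower (log2 fold change -2.47 ± 0.21, adjusted p = 0.00122, edgeR). Loxl2 had 26.6 and 20.7 CPM in KO, against 12.8 and 13.6 CPM in control libraries (0.83 ± 0.15, adjusted p = 0.00325, edgeR). Neither pair of groups overlapped, and the replicates of Fn1 lay within a few percent of each other in both lines. Sparc had 171.8 and 158.8 CPM in KO, against 89.9 and 88.7 CPM in control libraries (0.89 ± 0.21, adjusted p = 0.0276, edgeR). Loxl4 had 2.92 and 3.38 CPM in KO, against 7.39 and 6.77 CPM in control libraries (-1.17 ± 0.33, adjusted p = 0.0247, edgeR). Leaving out any 1 of the 4 day 3 libraries took the adjusted p of Sparc to between 0.0784 and 0.118 and that of Loxl4 to between 0.103 and 0.164, and Sparc without a low-count filter (0.0647) and Loxl4 with DESeq2 (0.084) also missed the threshold. Loxl1 had 30 counts in each KO library and 10 and 12 counts in control libraries (1.41 ± 0.89, adjusted p = 0.285, edgeR). With DESeq2 (adjusted p = 0.0207) and with the day 3 libraries alone (0.00265, edgeR), Loxl1 was called higher. Its change was 1.41 and 1.43 without the first and second day 5 KO library. Loxl3 differed by -0.14 ± 0.33 (adjusted p = 0.774, edgeR), by 0.48 without the first day 3 control library, and its groups overlapped. Tnc, at about 1 CPM or less, differed by -0.54 ± 0.78 (adjusted p = 0.637, edgeR). For Lox and Postn no fold is given at this depth.

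At day 5 the KO libraries held less Loxl1, Loxl2, Loxl3 and Postn mRNA than control and more Loxl4. Of the 8 tested genes 1 was called higher and 4 lower, where 43.5% of all genes tested were called (21.9% higher, 21.7% lower). The median log2 change over the 8 was -0.67, beside 0.01 over all genes. Postn, at 20.1 and 4.97 CPM in KO against 144.4 and 135.6 CPM in control libraries, was 11.2-fold lower (log2 fold change -3.49 ± 0.56, adjusted p = 0.00764, edgeR). Loxl1, at 15.7 and 5.14 CPM in KO against 83.2 and 82.7 CPM in control libraries, was 7.98-fold lower (-3.00 ± 0.42, adjusted p = 0.00314, edgeR). For both genes the first KO library was nearer the controls than the second. Without the first KO library the changes were -4.82 for Postn and -4.01 for Loxl1, and without the second they were -2.81 for Postn and -2.41 for Loxl1. Loxl2 had 127.9 and 114.5 CPM in KO, against 214.5 and 186.2 CPM in control libraries (-0.73 ± 0.11, adjusted p = 9.60e-04, edgeR). Loxl3 had 5.05 and 4.71 CPM in KO, against 10.9 and 9.93 CPM in control libraries (-1.09 ± 0.30, adjusted p = 0.0166, edgeR), and without the first or second control library its adjusted p was 0.0957 or 0.0598. Loxl4 stood on the other side, with 5.05 and 5.14 CPM in KO against 1.39 and 0.397 CPM in control libraries (2.50 ± 0.42, adjusted p = 0.00121, edgeR). Its change was 3.65 without the first control library and 1.87 without the second.

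Sparc, Fn1 and Tnc were not called at day 5. Sparc had 716.5 and 473.7 CPM in KO, against 955.4 and 866.6 CPM in control libraries (-0.61 ± 0.20, adjusted p = 0.0558, edgeR), with no overlap. It was called lower with DESeq2 (adjusted p = 1.72e-04). Its change was -0.95 without the first KO library and -0.36 without the second. Fn1, still 5.56-fold lower at day 3, had 3370.4 and 2231 CPM in KO against 3001 and 2984 CPM in control libraries at day 5 (-0.10 ± 0.19, 95% interval -0.60 to 0.41, adjusted p = 0.725, edgeR). Tnc had 47.5 and 26.2 CPM in KO, against 33.9 and 42.6 CPM in control libraries (-0.06 ± 0.27, 95% interval -0.70 to 0.59, adjusted p = 0.887, edgeR). For both genes the KO libraries straddled the controls. Without the first KO library the change was -0.43 for Fn1 and -0.55 for Tnc, and without the second it was 0.16 for Fn1 and 0.30 for Tnc. Calls from these fits are not read, because a lone KO library gives no spread of its own.

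For 5 of these genes the difference between the lines itself differed between days 5 and 3, where 24.2% of all genes tested were called for such a difference (13.4% higher, 10.8% lower). The day 5 difference minus the day 3 difference was -4.41 ± 0.97 for Loxl1 (adjusted p = 0.0262, edgeR) and -1.56 ± 0.18 for Loxl2 (adjusted p = 5.88e-04, edgeR). It was -1.50 ± 0.29 for Sparc (adjusted p = 0.0191, edgeR), 3.67 ± 0.54 for Loxl4 (adjusted p = 0.00123, edgeR) and 2.38 ± 0.28 for Fn1 (adjusted p = 0.00503, edgeR). Loxl2 and Loxl4 were called in opposite directions on the 2 days, and no gene of the 9 was called in the same direction on both. Loxl3 (-0.95 ± 0.45, adjusted p = 0.159, edgeR) and Tnc (0.49 ± 0.82, adjusted p = 0.715, edgeR) were not called, and Loxl3 had -1.58 without the first day 3 control library. Without any 1 of the 4 day 3 libraries or the first day 5 control library Loxl1 missed the threshold (adjusted p = 0.0536 to 0.101), as did Sparc without either day 3 control library, the first day 3 KO library or the first day 5 control library (0.0603 to 0.0675). The value of Loxl1 was -5.42 without the first day 5 KO library, and that of Loxl4 was 4.81 and 3.04 without the first and second day 5 control library.

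At day 10 4 of 9 genes were called between libraries labelled KO and control, all of them higher. In this comparison 5.27% of the 17022 genes tested were called (1.92% higher, 3.35% lower). The median log2 change over the 9 was 1.22, beside 0.02 over all genes. Whether the libraries of these groups overlapped for a gene is not read as a result, since the share of all genes without overlap is not given. Lox (ENSMUSG00000024529.14), the founding enzyme of the family, lies on the minus strand of chromosome 18 at 52516067 to 52529867 in mm10. It had 356.4 and 385.0 CPM in libraries labelled KO, against 80.0 and 57.6 CPM in control libraries (log2 fold change 2.43 ± 0.43, 5.39-fold, adjusted p = 0.0309, edgeR). Loxl4 had 12.8 and 7.95 CPM in libraries labelled KO, against 1.38 and 2.57 CPM in control libraries (2.40 ± 0.42, adjusted p = 0.0298, edgeR). Loxl2 had 905.7 and 746.7 CPM in libraries labelled KO, against 352.6 and 354.7 CPM in control libraries (1.22 ± 0.24, adjusted p = 0.0373, edgeR). For each of the 3 enzymes the lower library labelled KO was more than 2 times the higher control library. Sparc had 3074 and 4067 CPM in libraries labelled KO, against 1452 and 1245 CPM in control libraries (1.41 ± 0.28, adjusted p = 0.0416, edgeR).

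The other 5 genes missed the threshold at day 10 with the same sign. Loxl1 had 167.2 and 155.4 CPM in libraries labelled KO, against 38.2 and 35.1 CPM in control libraries (2.14 ± 0.51, adjusted p = 0.0700, edgeR). Loxl3 had 28.7 and 28.6 CPM in libraries labelled KO, against 12.1 and 12.7 CPM in control libraries (1.21 ± 0.36, adjusted p = 0.122, edgeR). In both genes replicates were close, and both were called higher with DESeq2 (adjusted p = 1.51e-04 for Loxl1 and 0.0224 for Loxl3). Postn had 1323 and 1066 CPM in libraries labelled KO, against 691.8 and 713.6 CPM in control libraries (0.77 ± 0.35, adjusted p = 0.297, edgeR). Tnc had 240.1 and 162.7 CPM in libraries labelled KO, against 135.5 and 147.6 CPM in control libraries (0.51 ± 0.39, adjusted p = 0.570, edgeR). Fn1 had 4566 and 2739 CPM in libraries labelled KO, against 1689 and 2535 CPM in control libraries (0.79 ± 0.43, adjusted p = 0.386, edgeR). The 2 libraries labelled KO stood apart for Tnc and Fn1, with the first the higher. The count of genes called fell to 0 of 9 without the first or the second control library, where the adjusted p of Lox was 0.142 and 0.180, and to 1 of 9 without the first or the second library labelled KO. Sparc alone was also lost without the second IWR1 library (adjusted p = 0.0501).

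With IWR1 the whole set was lower than in untreated libraries labelled KO: 8 of 9 genes were called, all lower, where 13.9% of all genes tested were called (5.77% higher, 8.08% lower). The median log2 change over the 9 was -2.50, beside -0.01 over all genes. Overlap of libraries between these groups is likewise not read as a result, since its share over all genes is not given. Lox moved most, with 5.65 and 14.1 CPM with IWR1 against 356.4 and 385.0 CPM without it, 37.6-fold lower (log2 fold change -5.23 ± 0.50, adjusted p = 0.00675, edgeR). Loxl2 had 151.9 and 196.1 CPM with IWR1, against 905.7 and 746.7 CPM without it (-2.25 ± 0.25, adjusted p = 0.00815, edgeR). Loxl4 had 1.61 and 2.07 CPM with IWR1, against 12.8 and 7.95 CPM without it (-2.50 ± 0.42, adjusted p = 0.0184, edgeR). Lox and Loxl2 kept their calls with any 1 of the 6 day 10 libraries left out, and Loxl4 lost its call without the first library labelled KO (adjusted p = 0.0525) or the first IWR1 library (0.0854). Without the second IWR1 library the change of Lox was -6.04. Loxl1 had 12.0 and 39.8 CPM with IWR1, against 167.2 and 155.4 CPM without it (-2.64 ± 0.53, adjusted p = 0.0264, edgeR). Loxl3 had 7.10 and 15.5 CPM with IWR1, against 28.7 and 28.6 CPM without it (-1.34 ± 0.36, adjusted p = 0.0559, edgeR), and was called lower with DESeq2 (adjusted p = 0.00427). In each of Lox, Loxl1 and Loxl3 the second IWR1 library was more than 2 times the first. Loxl1 had a change of -2.02 without the first IWR1 library and -3.75 without the second, and its adjusted p was 0.0564 and 0.0506 without the first and second library labelled KO. Loxl3 had a change of -2.01 without the second IWR1 library.

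Among the glycoproteins Fn1 had 274.3 and 490.9 CPM with IWR1, against 4566 and 2739 CPM without it (-3.25 ± 0.46, adjusted p = 0.0137, edgeR). Postn had 96.5 and 188.7 CPM with IWR1, against 1323 and 1066 CPM without it (-3.07 ± 0.38, adjusted p = 0.0107, edgeR), and kept its call with any 1 library left out. The 2 genes were 9.55-fold and 8.38-fold lower. Sparc had 783.1 and 908.2 CPM with IWR1, against 3074 and 4067 CPM without it (-2.08 ± 0.29, adjusted p = 0.0130, edgeR). Tnc had 35.1 and 76.9 CPM with IWR1, against 240.1 and 162.7 CPM without it (-1.85 ± 0.40, adjusted p = 0.0325, edgeR). Without the first IWR1 library 4 of 9 genes were called, with adjusted p of 0.0549 for Fn1, 0.0571 for Sparc and 0.0785 for Tnc. Without the first library labelled KO 5 of 9 were called. Tnc also missed the threshold without the first or second control library (adjusted p = 0.0591 and 0.0584) and without the first library labelled KO (0.0924), and its change was -2.52 without the second IWR1 library.

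Set against control, 4 of 9 genes were called with IWR1, all lower, where 9.12% of all genes tested were called (2.99% higher, 6.13% lower). This comparison shares the IWR1 libraries with one of the others and the control libraries with the other, so the 3 day 10 comparisons are not independent. Lox had 5.65 and 14.1 CPM with IWR1, against 80.0 and 57.6 CPM in control libraries (-2.80 ± 0.44, adjusted p = 0.0174, edgeR). Postn (-2.30 ± 0.36, adjusted p = 0.0174, edgeR), Fn1 (-2.46 ± 0.45, adjusted p = 0.0243, edgeR) and Loxl2 (-1.02 ± 0.24, adjusted p = 0.0464, edgeR) were the others. These 4 genes were below control in both IWR1 libraries. Loxl1 (-0.50 ± 0.50, adjusted p = 0.498, edgeR), Loxl3 (-0.14 ± 0.36, adjusted p = 0.810, edgeR) and Loxl4 (-0.10 ± 0.42, adjusted p = 0.883, edgeR) overlapped with control. The 95% interval was -1.70 to 0.69 for Loxl1 and -1.09 to 0.90 for Loxl4, and its upper end was 0.73 for Loxl3. Tnc (-1.34 ± 0.39, adjusted p = 0.0805, edgeR) and Sparc (-0.67 ± 0.28, adjusted p = 0.157, edgeR) had no overlap and were not called. Fewer genes were called without either control library or without the first IWR1 library. Without the second IWR1 library the change was -1.61 for Loxl1, -2.01 for Tnc and -3.60 for Lox. Sparc and Tnc were also called lower with DESeq2 (adjusted p = 0.0399 and 0.00562).

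**Figure D3:**
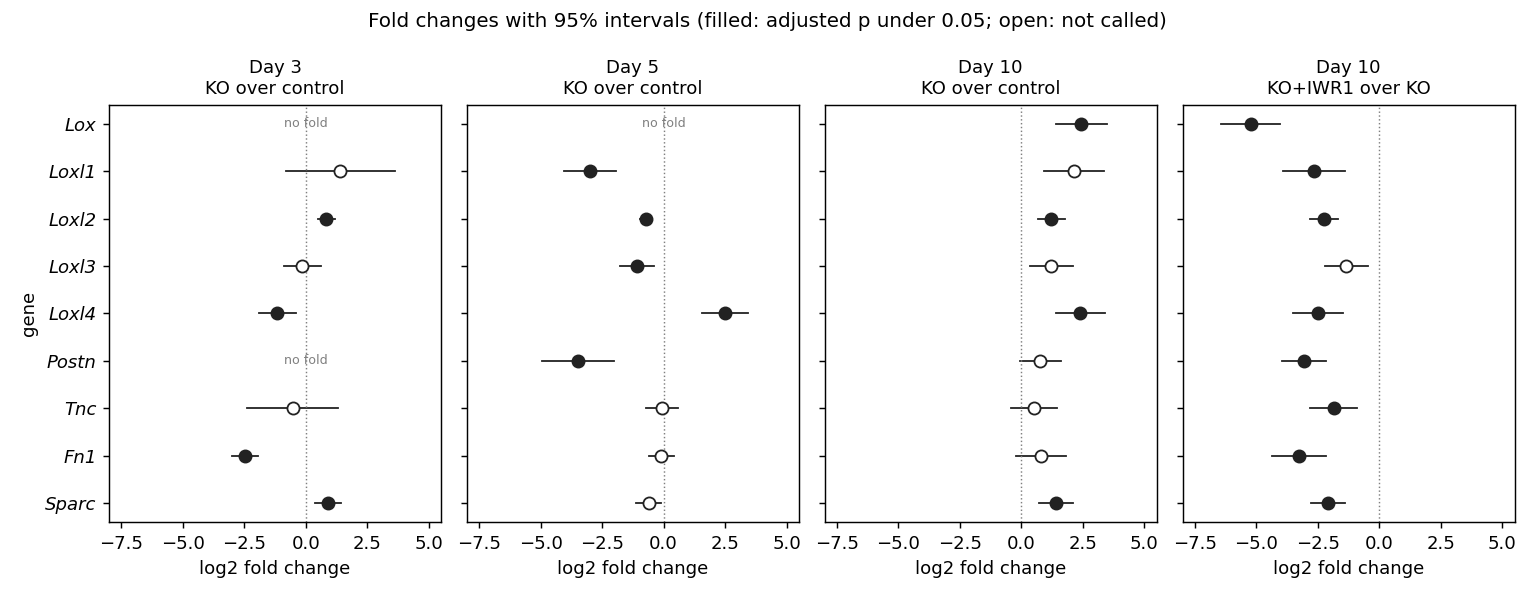
Log2 fold change of each gene with its 95% interval in 4 comparisons; filled points have an adjusted p under 0.05 (edgeR) and "no fold" marks genes with too few counts. The called points lie on both sides of 0 at days 3 and 5, on the right for KO over control at day 10, and on the left for KO with IWR1 over KO, where Lox is at -5.23.

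Genes that supply, prepare or surround the products of these 9 were read from lists of related genes. In the paragraphs on these lists, single values in parentheses after a gene are log2 fold changes of genes called at an adjusted p under 0.05 (edgeR), and those after a count are medians over the list's tested genes. Over all genes tested, 32.9% were called at day 3, 43.5% at day 5, 5.27% at day 10 between the lines and 13.9% with IWR1 against KO, and each list's count is to be read against these shares. The 20 tested genes for fibrillar collagens and elastic fibres, the substrates of the lysyl oxidases, held 4 called higher and 3 lower at day 3 (0.25), a share near that of all genes, and 1 higher and 11 lower at day 5 (-1.14). At day 10 they held 2 higher and 1 lower in libraries labelled KO against control (1.11), and 1 higher and 10 lower with IWR1 against KO (-1.40). DESeq2 called 11 higher and 1 lower at day 10 between the lines. Over all genes tested the medians were -0.01, 0.01, 0.02 and -0.01 in these 4 comparisons. At day 5 Col1a2, the second chain of collagen I, averaged 31.6 ± 2.12 CPM in KO and 346.7 ± 62.3 CPM in control libraries (SD, n = 2 each; adjusted p = 2.24e-06, edgeR), and Mfap4 (-1.67) and Col11a1 (-1.98) also fell. At day 3 Mfap4 (-1.03) and Efemp2 (-0.57), which encodes the elastic fibre protein fibulin-4, fell, and Ltbp1 (0.58) rose. Libraries labelled KO at day 10 held more Efemp1 (3.08) and Fbln5 (2.69), an organiser of elastin that binds Loxl1, and less Col2a1, the cartilage collagen (-3.12). With IWR1 Col2a1 was higher than without it, at 86.6 ± 21.1 CPM against 8.45 ± 0.160 CPM (3.36 ± 0.25, adjusted p = 0.00538, edgeR), while Col1a1 (-4.02) and Col5a1 (-2.97) were lower.

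The 7 tested genes for proenzyme proteases and copper supply held 1 gene called at day 3, which was lower, 2 higher and 2 lower at day 5, 1 higher and 1 lower at day 10 and 1 higher and 3 lower with IWR1 against KO. Their median log2 changes were 0.10, 0.08, 0.27 and -0.71. Over all genes 32.9%, 43.5%, 5.27% and 13.9% were called in the same comparisons. Pcolce, which speeds the cutting of procollagen by Bmp1, averaged 344.6 ± 29.5 CPM in day 10 libraries labelled KO and 71.9 ± 2.08 CPM in control libraries (2.26 ± 0.24, adjusted p = 0.00868, edgeR). It was lower with IWR1 (-1.87), together with Bmp1 itself (-1.02), and lower in KO at day 5 (-1.81). Pcolce2, its relative, moved the other way, at -1.96 in libraries labelled KO and at 1.47 with IWR1. Tll1, a protease of the Bmp1 family, averaged 4.44 ± 2.71 CPM in KO and 0.248 ± 0.211 CPM in control libraries at day 5 (4.11 ± 0.65, adjusted p = 8.97e-04, edgeR). The copper importer Slc31a1 was slightly lower in KO at days 3 (-0.34) and 5 (-0.42).

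The 13 genes for collagen modification inside the cell, such as prolyl and lysyl hydroxylases, held 7 called at day 3, all higher (0.15), and 6 at day 5, all lower (-0.15), where 32.9% and 43.5% of all genes were called. They held 2 at day 10, both higher (0.62), and 7 with IWR1 against KO, all lower (-0.90). DESeq2 called 2 of them at day 3 and 4 at day 10, all higher, and 4 at day 5, all lower. The day 5 count is near the share of all genes. P4ha2, a prolyl hydroxylase subunit, was higher in KO at day 3 (0.68) and lower at day 5 (-1.05), as Loxl2 was. Plod2 (0.36) and Plod1 (0.33), both lysyl hydroxylases, rose at day 3, and P4hb (-0.29) and P3h1 (-0.92) fell at day 5. P3h1 and Crtap, partners in one prolyl hydroxylation complex, were higher in day 10 libraries labelled KO (1.17 and 1.34) and lower with IWR1 (-1.55 and -1.86), as was P4ha2 with IWR1 (-1.62).

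Other matricellular genes, 15 of 22 tested at days 3 and 5 and 18 at day 10, moved in both directions. They held 7 higher and 1 lower at day 3 (0.72), 5 higher and 4 lower at day 5 (0.56), where 32.9% and 43.5% of all genes were called, 2 higher and 2 lower at day 10 (0.51) and 1 higher and 6 lower with IWR1 against KO (-0.66). At day 10 DESeq2 called 6 higher and 4 lower. Spp1, which encodes osteopontin, averaged 59.2 ± 2.64 CPM in KO and 1.54 ± 1.05 CPM in control libraries at day 5 (5.26 ± 0.24, adjusted p = 1.25e-06, edgeR) and was also higher in KO at day 3 (2.63). The thrombospondins Thbs1 (2.10) and Thbs3 (1.16) were higher in KO at day 3. Smoc2, a relative of Sparc, followed Postn in its signs, with -4.07 in KO at day 5, 2.41 in day 10 libraries labelled KO and -2.71 with IWR1. Smoc1, its paralog, had the opposite signs at day 10, with -1.38 in libraries labelled KO and 1.47 with IWR1. Sparcl1 (-3.47) fell in KO at day 5, Fstl1 (1.39) rose in day 10 libraries labelled KO, and Ccn1 (-1.30) fell with IWR1.

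Receptors for fibronectin, tenascin and periostin held 3 higher and 2 lower of 12 at day 3 (0.17) and 3 higher and 3 lower at day 5 (-0.28), where 32.9% and 43.5% of all genes were called, so both counts are near the share of all genes. Of 13 tested at day 10, edgeR called 0 between the lines (0.38), with 4 higher and 2 lower at an unadjusted p under 0.05, and DESeq2 called 2 higher and 1 lower. With IWR1 against KO edgeR called 6, all lower (-0.88), and DESeq2 called 7 lower and 1 higher. Itga8, an integrin chain that binds fibronectin and tenascin-C, averaged 1.55 ± 0.0499 CPM in KO and 27.4 ± 3.05 CPM in control libraries at day 3 (-4.13 ± 0.21, adjusted p = 8.86e-07, edgeR) and was lower at day 5 too (-2.03). Sdc4, a syndecan that acts with integrins on fibronectin, was higher in KO at day 3 (1.16) and at day 5 (1.43), while Sdc2 was higher at day 3 (0.76) and lower at day 5 (-1.24). With IWR1 Itga4 (-1.95), Itgav (-1.78) and Sdc2 (-0.98) fell. The 12 genes of TGF-beta signalling, a pathway known to raise expression of several matrix genes, held 2 higher and 4 lower at day 3 (-0.01) and 4 higher and 3 lower at day 5 (0.17), against the same shares. At day 10 edgeR called 0 of them between the lines (0.37), with 3 higher at an unadjusted p under 0.05, the number that DESeq2 called. With IWR1 against KO edgeR called 4, all lower (-1.13), and DESeq2 called 8 lower and 1 higher. Tgfb1, a ligand, averaged 6.35 ± 0.143 CPM in KO and 38.5 ± 1.93 CPM in control libraries at day 3 (-2.60 ± 0.10, adjusted p = 1.73e-07, edgeR), with the receptors Tgfbr3 (-1.64) and Tgfbr1 (-0.60) also lower. At day 5 Tgfb2 (-2.63) and Tgfbr1 (-0.84) were lower in KO. With IWR1 Tgfbr3 (-2.73) and Tgfbr2 (-1.84) fell.

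**Figure D4:**
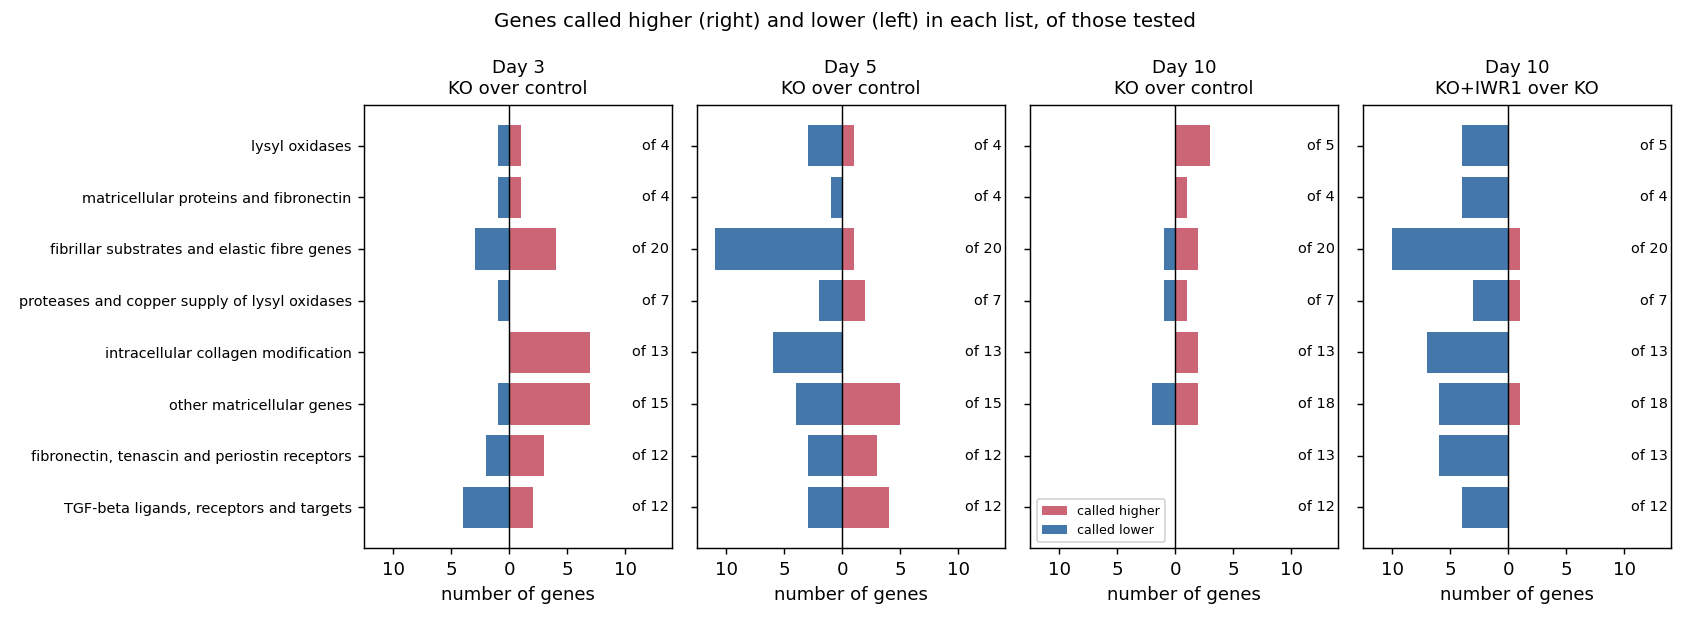
Genes called higher (right, red) and lower (left, blue) at an adjusted p under 0.05 in each list, with the number tested, in 4 comparisons. Fibrillar substrates lean to the lower side at day 5, with 11 of 20, and with IWR1, with 10 of 20; receptors and TGF-beta genes have 0 edgeR calls at day 10 between the lines.

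Marker levels of several cell types also differed between the groups, in the direction of some of the 9 genes and against others. The 11 fibroblast and mesenchyme markers summed to 33.8 to 40.8 CPM in KO and 112.8 to 116.4 CPM in control libraries at day 3. Pdgfra was the most abundant of them in control libraries and Thy1 in KO libraries. At day 3 edgeR called 1 of the 11 higher and 2 lower, where 32.9% of all genes were called. Their median log2 change was 0, so the lower sum in KO does not stand for the list. At day 5 the sum ranged from 195 to 580.2 CPM in KO and from 1391 to 1693.4 CPM in control libraries. At day 10 it ranged from 1405.4 to 3579.8 CPM with IWR1, from 19680.1 to 25343 CPM in libraries labelled KO and from 7206.5 to 7840.6 CPM in control libraries. The groups stood in the order of Postn at days 5 and 10, and the higher library was the same one as for Postn in day 5 KO, IWR1 and day 10 KO libraries. At day 3 the KO sum was the lower one, while Loxl2 and Sparc were called higher, and at day 5 it was again the lower one, while Loxl4 was called higher and Fn1 and Tnc were not called. Several of these markers are collagen genes that are also on the list of substrates. Of the 11, edgeR called 4 higher in day 10 libraries labelled KO, where 5.27% of all genes were called, and DESeq2 called 8 higher and 1 lower. With IWR1 against KO edgeR called 5 lower and 2 higher, where 13.9% of all genes were called. Dcn, a proteoglycan of fibroblasts, averaged 47.0 CPM with IWR1, 620.4 CPM in libraries labelled KO and 83.4 CPM in control libraries. Lum, another, was at 0 counts in all 4 day 3 libraries. Pdgfra, a receptor of mesoderm and mesenchyme, averaged 1.41 CPM in KO and 73.2 CPM in control libraries at day 3, and at day 10 it had 100.8 CPM with IWR1, 104.3 CPM in libraries labelled KO and 93.6 CPM in control libraries and was not called. Sums of 11 parietal endoderm markers were 828.5 to 831.4 CPM in KO and 1153.8 to 1167.1 CPM in control libraries at day 3. Fst was the most abundant of them in control libraries and Lamc1 in KO libraries. By edgeR 1 of the 11 was called higher and 2 lower, where 32.9% of all genes were called, and their median log2 change was -0.31. DESeq2 called 3 higher and 3 lower. At day 5 edgeR called 3 higher and 0 lower, where 43.5% of all genes were called. At day 10 the parietal endoderm sums were 671.8 to 953.7 CPM with IWR1, 1591 to 2683.9 CPM in libraries labelled KO and 1789.8 to 2377.2 CPM in control libraries. At day 10 8 cardiomyocyte markers summed to 304.4 to 355.7 CPM with IWR1, 68.9 to 158.0 CPM in libraries labelled KO and 3696.9 to 4219.2 CPM in control libraries. Sums of 8 visceral endoderm markers were 76.0 to 173.7 CPM with IWR1, 713.6 to 1870.4 CPM in libraries labelled KO and 3807.2 to 4448.4 CPM in control libraries. Afp was the most abundant of these in every day 10 group. Between libraries labelled KO and control, edgeR called 0 of the 8 higher and 1 lower, where 5.27% of all genes were called. Their median log2 change was -0.95, and DESeq2 called 1 higher and 3 lower. With IWR1 against KO edgeR called 8 lower, where 13.9% of all genes were called. At day 5 7 pluripotency markers summed to 248.5 to 463.7 CPM in KO and 63.4 to 68.6 CPM in control libraries, and 6 blood markers to 24.1 to 91.4 CPM in KO and 1107.7 to 1149.6 CPM in control libraries. Sums of 7 endothelial markers at day 3 were 25.4 to 25.9 CPM in KO and 114.4 to 122.5 CPM in control libraries. Kdr was the most abundant of these in control libraries and Pecam1 in KO libraries. Of the 6 tested, edgeR called 0 higher and 1 lower, where 32.9% of all genes were called. Their median log2 change was 1.02, so the sum does not stand for the list. Neural markers, 6 in number, summed at day 10 to 228 to 365 CPM with IWR1, 45.2 to 70.4 CPM in libraries labelled KO and 79.8 to 100.5 CPM in control libraries. Sums of 6 smooth muscle markers at day 10 were 375.1 to 542.4 CPM with IWR1, 757 to 802.5 CPM in libraries labelled KO and 498.3 to 507.1 CPM in control libraries. Acta2 and Tagln were the most abundant of these in every day 10 group. Between libraries labelled KO and control, edgeR called 0 of the 6 higher and 2 lower, where 5.27% of all genes were called. DESeq2 called 1 higher and 2 lower. The part of any of these cells in the results on the 9 genes was not tested.

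As a description across libraries, Loxl1, Loxl2, Postn, Tnc and Sparc varied together and Loxl4 did not vary with them. Pearson r of log2(CPM + 1) over 14 libraries, each table centred on its own mean, was 0.83 to 0.99 between pairs of these 5 genes, with 0.99 for Loxl2 with Sparc, 0.95 for Loxl1 with Postn, 0.95 for Loxl2 with Tnc and 0.83 for Loxl1 with Tnc. For Loxl4 it was -0.31 with Postn, -0.23 with Loxl1 and 0.35 with Fn1. Within the 8 libraries of days 3 and 5 Loxl4 had -0.84 with Loxl1, and within the 6 of day 10 it had 0.90. Lox had 0.81 to 0.99 with each of the others at day 10. Among 10425 protein-coding genes with a mean of at least 5 CPM in both tables, the 2 most like each gene were Fech (0.983) and Man1a (0.981) for Loxl1, and Sparc (0.986) and Gng12 (0.985) for Loxl2. They were Mrc2 (0.941), a collagen uptake receptor, and Colec12 (0.940) for Loxl3, and Slc25a32 (0.942) and Eps8 (0.900) for Loxl4. For Postn they were Svep1 (0.997), a large extracellular adhesion protein, and Ccnd3 (0.994). For Tnc they were Slc25a24 (0.983) and Col12a1 (0.982), a fibril-associated collagen, for Fn1 BC034090 (0.964) and Dsp (0.962), and for Sparc Cd81 (0.987) and Loxl2 (0.986). The 14 points are 7 groups of 2 libraries, so they are not independent.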

How the data were processed

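Estimated counts per gene for 14 libraries were deposited as whole numbers in 2 tables, 8 libraries of days 3 and 5 and 6 of day 10. The submitters' processing notes name kallisto 0.46.2 and mm10; no strand setting is named, and per the labels' protocols either an unstranded or a stranded poly-A kit was possible. All 36047 identifiers matched GENCODE vM21. Each table was fitted on its own, with all its groups, by the quasi-likelihood test of edgeR 4.0.16 (R 4.3.3; filterByExpr, TMM, robust, no replicate block). This left 14430 genes tested with 4 residual degrees of freedom at days 3 and 5, and 17022 genes with 3 at day 10. Adjusted p-values are Benjamini-Hochberg over all genes tested, and a gene was called under 0.05. Errors of fold changes are standard errors, with 95% intervals from the fit. CPM uses TMM-scaled library sizes; since the tables were normalized separately, tests stay within a table. The common biological coefficient of variation was 0.0915 at days 3 and 5 and 0.248 at day 10. No 2 libraries of a group were identical or agreed within sampling noise, with a chi-square per degree of freedom of 1.84 (day 3 control) to 152 (day 10 KO).

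The alternatives were RLE scaling, no low-count filter, DESeq2 1.42.0, a replicate block, the libraries of 2 groups alone, each library left out and another transcript length. When 1 library was left out, the lone library was taken to vary like the other groups, so calls gained in such fits do not stand for stronger results. The fit was tested on simulated data. For KO against control at day 10 it recovered 0 of 69 genes changed 1.5-fold and 3 of 72 changed 2-fold. Of 59 genes changed 4-fold it recovered 37. A gene not called at day 10 is therefore not shown to be unchanged. Related genes named are, per list and comparison, up to 3 called genes with the smallest p. 1 gene that this rule names is not reported here. Likeness was Pearson r of log2(CPM + 1) over genes with a mean of at least 5 CPM in both tables. The 9 genes and all lists were chosen with earlier results of these data known.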

Additional observations from a re-analysis of the deposited data

Results flagged for a closer look

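For 5 genes the difference between KO and control at day 5 differed from that at day 3, by the interaction term of the edgeR fit. The day 5 minus day 3 value on the log2 scale was -4.41 for Loxl1 (adjusted p = 0.0262, edgeR), -1.56 for Loxl2 (0.000588), 3.67 for Loxl4 (0.00123), 2.38 for Fn1 (0.00503) and -1.50 for Sparc (0.0191). Loxl2 was called higher in KO at day 3 and lower at day 5, and Loxl4 the reverse. Fn1 and Sparc were called at day 3 and not at day 5, and Loxl1 at day 5 and not at day 3.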

How the results depend on the processing

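RLE scaling moved none of the 16 counts of calls, over all genes and over the 9, by more than 1.5 times. DESeq2 called 3010 genes in KO against control at day 3, 2313 for the day 5 minus day 3 difference, 1981 in KO against control at day 10, 4229 with IWR1 against KO and 3402 with IWR1 against control. Without a low-count filter the day 10 counts were 1737, 3697 and 3093 in the same order. The libraries of 2 groups alone gave 7334 genes at day 3 and 1001 with IWR1 against KO. The cause of these shifts was not tested.

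With the replicate number as a block the genes called were 611 in KO against control at day 10, 1233 with IWR1 against KO and 948 with IWR1 against control, and 2 of the 9 in KO against control at day 10 (lost were Loxl2 and Sparc, adjusted p = 0.0982 and 0.113, edgeR). With IWR1 against control 3 of the 9 were called, without Loxl2 (0.115), and at day 5 Sparc was called (0.0209). Deviations of same-numbered libraries had r from -0.008 to 0.084 at days 3 and 5. At day 10 r was 0.452 between IWR1 and control, -0.569 between KO and control and -0.548 between IWR1 and KO. Since not every pair was over 0.1, the numbers were not taken to pair samples. A crossed pairing at day 10, chosen after seeing the data, called 3257, 7268 and 7182 genes.

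With each library left out in turn, the genes called ranged from 2520 to 7002 (day 3), 4028 to 7563 (day 5), 2049 to 5620 (day 5 minus day 3), 63 to 1154 (KO against control at day 10), 548 to 3056 (IWR1 against KO) and 280 to 2145 (IWR1 against control). Of the 9 genes, the number called ranged from 2 to 5, 4 to 8, 3 to 5, 0 to 6, 4 to 9 and 0 to 6 in the same comparisons. The log2 change of some genes turned sign in these fits. The range was -0.59 to 0.48 for Loxl3 at day 3 (0.48 without control replicate 1), -0.55 to 0.30 for Tnc at day 5 (0.12 without control replicate 2 and 0.30 without KO replicate 2) and -0.43 to 0.16 for Fn1 at day 5 (0.16 without KO replicate 2). It was -0.01 to 0.93 for Tnc in the day 5 minus day 3 difference (-0.01 without day 5 KO replicate 1). With IWR1 against control it was -1.61 to 0.12 for Loxl1 and -0.80 to 0.33 for Loxl3 (0.12 and 0.33 without IWR1 replicate 1), and -0.48 to 0.42 for Loxl4 (0.42 without control replicate 2 and 0.08 without IWR1 replicate 1). With 2 libraries a group, and 14 or fewer counts of Loxl4 in each day 5 control library, folds of low genes are the least precise.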
